A study of Mus musculus with 4 samples.

Results

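DNA copy number was read at 9 genes of the PI3K and mTOR pathway in 4 mouse liver tumours. The genes were Pik3ca, Pik3r1, Akt2, Tsc1, Tsc2, Mtor, Rptor, Rictor and Rps6kb1. They were taken by name alone from the gene column of the array files and made up 9 of 18698 gene names with probes on a single chromosome. All 9 were found, with 4 to 32 probes each and 85 probes in all. The tumours, numbered 239, 240, 244 and 252, came from livers of Fah-/- Trp53-/- mice labelled male. These animals were given NTBC in the drinking water, with a full dose of 7.5 mg per L, lowered to 2.5% of that dose over 6 months. NTBC blocks an early step of tyrosine breakdown and so spares mice without Fah, the last enzyme of that route, while Trp53 encodes the p53 tumour suppressor. Each tumour (Cy5) was hybridised to a 2-colour oligonucleotide array together with 1 DNA pool (Cy3) made from 3 wild-type (FAH+/+ Trp53+/+) littermate livers. The arrays carry no liver of a Fah-/- Trp53-/- mouse outside its tumour and no pair of normal livers, and the dyes were never swapped. Ages are not given in the labels.

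In cells, growth factors and insulin activate PI3K, a lipid kinase with a catalytic and a regulatory subunit, whose product draws AKT kinases to the membrane. AKT phosphorylates and restrains the TSC complex, which otherwise switches off Rheb, the activator of the mTOR kinase. mTOR works in a complex with Raptor that promotes protein synthesis through the S6 kinase, and in a complex with Rictor that phosphorylates AKT in turn. In the liver the pathway governs insulin responses, lipid and protein synthesis and growth, and lesions that raise its activity occur in liver cancer.

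Each value is a log2 ratio, with tumour over pool, centred on each array's autosomal median, and positions are in mm9. If all cells were diploid and all carried it, gain of 1 copy would read 0.58 and loss of 1 copy -1. Ploidy and the share of tumour cells in the tissue were not measured, and both would move these levels. Whether a low ratio reflects few altered cells or a small change in each cell cannot be told apart. The noise SD between neighbouring probes was 0.25 to 0.35 across the arrays, and both colours were well above background at 98.7% to 98.9% of spots. Tumour 252 went against its label of male, with a median ratio of 0.73 on chromosome X and -2.43 on chromosome Y, against -0.30 to -0.09 and -1.20 to -0.14 in the other tumours. Tests of the members are therefore also given without tumour 252 where its loss changes a call. For most other pathway genes named below, the calls lost without it are listed. Limma called 0 neighbourhoods in the whole series without tumour 239 or without tumour 252, where 3574 and 3998 had an unadjusted p below 0.05. The 4 arrays limit the precision, and the spread among wild-type livers is left out because the pool is 1 sample.

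For each gene, 3 quantities were tested against 0 with limma over all gene names, with Benjamini-Hochberg adjusted p below 0.05 as the threshold. The gene level is the mean of the gene's own probes. The neighbourhood level is the mean of 83 to 201 other probes within 1 Mb of them and tells the state of the region. The third is the gene level minus the neighbourhood level. Rictor, Tsc2 and Rptor were called higher in gene level and Rps6kb1 was called lower, so 3 and 1 of 9 members passed, beside 17.6% of all 18697 gene names called higher and 15.1% called lower. In neighbourhood level Rictor, Tsc1, Tsc2 and Rptor were called higher and no member was called lower, beside 5.41% and 3.74% of all gene names. With so few members, 4 of 9 is a description and not a property of the pathway. The median neighbourhood level was 0.02 for the members and 0.02 for all gene names. The medians were 0.15 and 0.02 in gene level, and 0.06 and 0.01 in gene minus neighbourhood. In gene minus neighbourhood 4 of 9 members were called higher and 2 lower, beside 25.3% and 22.4% of all gene names, so a call there is common on these arrays. For 1 gene over 4 tumours, an exact permutation test by sign flips (two-sided) has 16 sign patterns, 2 of them extreme, so its smallest p is 2 in 16 and it cannot pass. In gene level 8 of 9 members, called or not, reached that value, and Akt2 did not. Pik3r1 reached it with -0.01 in tumour 252, so near 0 that leaving out 1 low probe would change its sign.

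**Figure D1:**
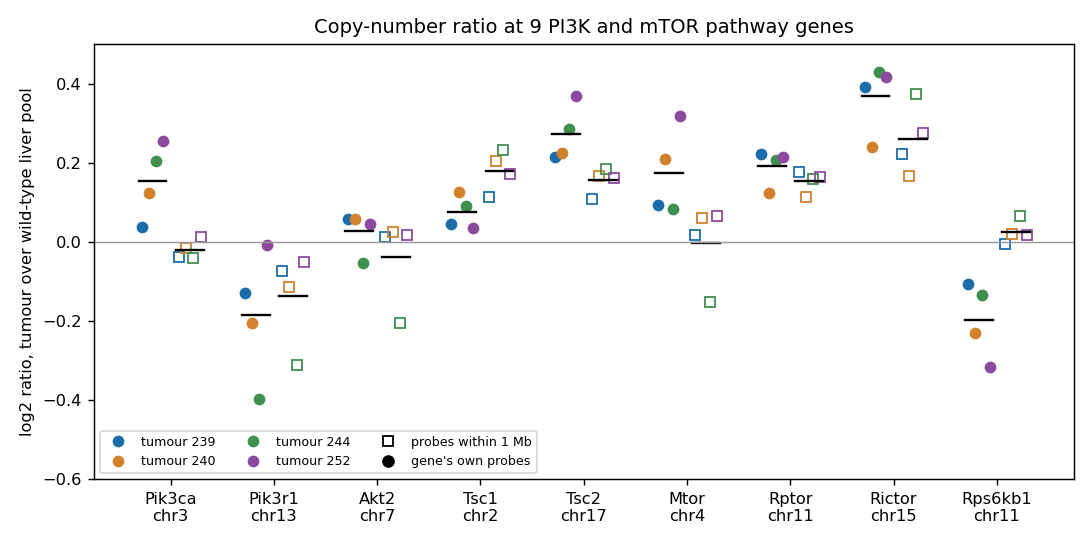
Log2 ratio of tumour over wild-type pool (y axis) at the 9 members (x axis, with chromosome), with filled circles for the mean of the gene's own probes, open squares for the mean of other probes within 1 Mb, 1 colour per tumour and a line at the mean of 4. Rictor lies between 0.24 and 0.43 in the 4 tumours, and tumour 244 is the lowest square at Pik3r1, Akt2 and Mtor.

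Pik3ca encodes the catalytic subunit of the PI3K that insulin and growth factor receptors use, and activating mutations of it are frequent in human cancers. On chromosome 3, tumours 239, 240, 244 and 252 had mean ratios of 0.04, 0.12, 0.20 and 0.25 over its 4 probes. The 128 probes around it gave -0.04, -0.02, -0.04 and 0.01. The region was thus level with the array centre in every tumour, at -0.02 ± 0.02 (SD, n = 4) with a 95% interval of -0.09 to 0.05. The gene's own probes, at 0.15 ± 0.10 (SD, n = 4), did not pass against 0 (adjusted p = 0.0904), and stood 0.18 above their neighbours (adjusted p = 0.0172). That difference rested on 1 probe at 0.45, since without each gene's farthest probe it was 0.08 (adjusted p = 0.161). Without tumour 240, 244 or 252 its adjusted p was 0.0518, 0.0757 and 0.0706, with differences of 0.19, 0.15 and 0.15.

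Pik3r1 encodes the regulatory subunit that stabilises the catalytic subunit and holds it inactive until a receptor is engaged. On chromosome 13, tumours 239, 240, 244 and 252 had -0.13, -0.20, -0.40 and -0.01 over its 8 probes. Its 83 neighbours gave -0.07, -0.12, -0.31 and -0.05. All values of both lay below 0, and tumour 244 was the lowest in both. Neither the gene level (-0.18 ± 0.16, SD, n = 4, adjusted p = 0.0941) nor the neighbourhood level (-0.14 ± 0.12, SD, n = 4, adjusted p = 0.16) passed. With a correction for GC content, chosen after seeing the data, the gene level was -0.23 and passed (adjusted p = 0.0422). The rest of chromosome 13 was at -0.05, -0.11, -0.31 and 0.02, close to the region in each tumour, and the mean of that rest was lowest in tumour 244. The first probe of Pik3r1 was the lowest of all 85, at -0.63, -0.78, -1.02 and -0.71 in the 4 tumours, and is printed to show what was measured there, as all probe sequences here, 5′ to 3′ as the array files list them and numbered along the chromosome.
Pik3r1 probe 1 (chr13:102459422-102459481): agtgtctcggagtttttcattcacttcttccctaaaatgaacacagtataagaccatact
Its pool signal was 703, within the range of the other 7 probes, whose means ran between -0.40 and 0.24. It lowered the gene level in all 4 tumours. In tumour 252 the gene level of -0.01 lay so near 0 that its sign did not rest on this probe alone. There probes 1, 4, 5 and 6 were at -0.71, -0.31, -0.16 and -0.09, and probes 2, 3, 7 and 8 at 0.56, 0.10, 0.03 and 0.50. Without each gene's farthest probe, Pik3r1 stood 0.04 above its neighbours, against 0.05 below them with all 8 probes, and neither value passed.

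Akt2 encodes the AKT kinase that carries much of the insulin signal in liver, and activated AKT restrains the TSC complex. On chromosome 7, tumours 239, 240, 244 and 252 had 0.06, 0.06, -0.05 and 0.04 over its 4 probes, and its 166 neighbours gave 0.01, 0.03, -0.20 and 0.02. Tumour 244 was the only one below 0 in either. The means of 0.03 ± 0.05 and -0.04 ± 0.11 (SD, n = 4) did not pass (adjusted p = 0.745 and 0.672), with 95% intervals of -0.10 to 0.16 and -0.16 to 0.09. Elsewhere chromosome 7 was at -0.23 in tumour 244 and between -0.02 and -0.00 in the other 3. The sign of the gene level depended on the processing. It was -0.33 (adjusted p = 0.00208) after normexp, a model-based background correction of the raw signals, and -0.10 after removal of a trend with intensity, and Akt2 had the dimmest probes of the members, with a mean log2 signal of 8.71 against 10.02 in its neighbours.

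Tsc1 encodes hamartin, which stabilises the TSC complex, and Tsc2 encodes tuberin, the subunit that switches off Rheb. Both are tumour suppressors, and both lay in regions called higher. At Tsc1 on chromosome 2 the 167 neighbours read 0.11, 0.20, 0.23 and 0.17 (tumours 239, 240, 244 and 252), on average 0.18 ± 0.05 (SD, n = 4, adjusted p = 0.0289). The rest of chromosome 2 was at 0.03, 0.09, 0.11 and 0.02, so the region lay above its chromosome in each tumour. The 7 probes of Tsc1 itself were closer to 0, at 0.05, 0.13, 0.09 and 0.04. Their mean of 0.07 ± 0.04 (SD, n = 4) did not pass (adjusted p = 0.327), and it lay 0.11 below the neighbours (adjusted p = 0.0393). Single Tsc1 probes ran between -0.35 and 0.56, and without the farthest one the difference was -0.03 (adjusted p = 0.399). The neighbourhood call was lost without tumour 239 (0.20, adjusted p = 0.148), without tumour 240 (0.17, adjusted p = 0.192) and without tumour 252 (0.18, adjusted p = 0.123). It was also lost with normexp, with the mode of 1 Mb bins as centre and with 2 Mb on either side. Over 18 settings the neighbourhood level ran between 0.08 and 0.20, and 12 called it. The call below the neighbours was lost without tumour 240, 244 or 252 (-0.11, -0.09 and -0.10, adjusted p = 0.093, 0.153 and 0.135).

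At Tsc2 on chromosome 17 the 201 neighbours read 0.11, 0.17, 0.18 and 0.16 (tumours 239, 240, 244 and 252), on average 0.16 ± 0.03 (SD, n = 4, adjusted p = 0.0321). Elsewhere chromosome 17 was at 0.01, 0.09, 0.09 and 0.05. With 2 Mb on either side the neighbourhood level was 0.08 (adjusted p = 0.154), and the plot of the regions shows a stretch of positive bins that ends about 1 Mb to each side of the gene. The neighbourhood call was lost without tumour 239 (0.17, adjusted p = 0.158), tumour 240 (0.15, adjusted p = 0.226) and tumour 252 (0.15, adjusted p = 0.165). It was also lost with normexp and with the mode of 1 Mb bins as centre. Over 18 settings the neighbourhood level ran between 0.08 and 0.17, and 10 called it. The 4 probes of Tsc2 averaged 0.22, 0.22, 0.29 and 0.37, all above their neighbours, with a mean of 0.27 ± 0.07 (SD, n = 4, adjusted p = 0.0114). The 4 probes are printed because the level of the gene rests on how they differ.
Tsc2 probe 1 (chr17:24739593-24739652): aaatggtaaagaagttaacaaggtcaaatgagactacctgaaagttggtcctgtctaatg
Tsc2 probe 2 (chr17:24745561-24745620): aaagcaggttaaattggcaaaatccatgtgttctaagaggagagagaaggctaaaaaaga
Tsc2 probe 3 (chr17:24751183-24751242): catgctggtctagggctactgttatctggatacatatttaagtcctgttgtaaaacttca
Tsc2 probe 4 (chr17:24759533-24759591): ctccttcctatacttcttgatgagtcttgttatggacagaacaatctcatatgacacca
Probe 4 gave 0.45, 0.38, 0.80 and 1.24 in tumours 239, 240, 244 and 252, with a pool signal of 132, and it was not well above background on every array. Probe 3, the brightest at 3555, gave -0.07, -0.25, -0.42 and -0.38. Probes 1 and 2 averaged 0.32 and 0.33. All 4 held 22 or 23 G or C bases. Without probes that failed the background criterion, the gene level of Tsc2 was 0.12 (adjusted p = 0.115) and stood -0.02 from its neighbours. Without tumour 240 the gene level was 0.29 (adjusted p = 0.0502). The excess of 0.12 over the neighbours (adjusted p = 0.0419) was lost without tumour 239, 240, 244 or 252 (0.12, 0.14, 0.12 and 0.09, adjusted p = 0.0611, 0.0717, 0.113 and 0.149).

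**Figure D2:**
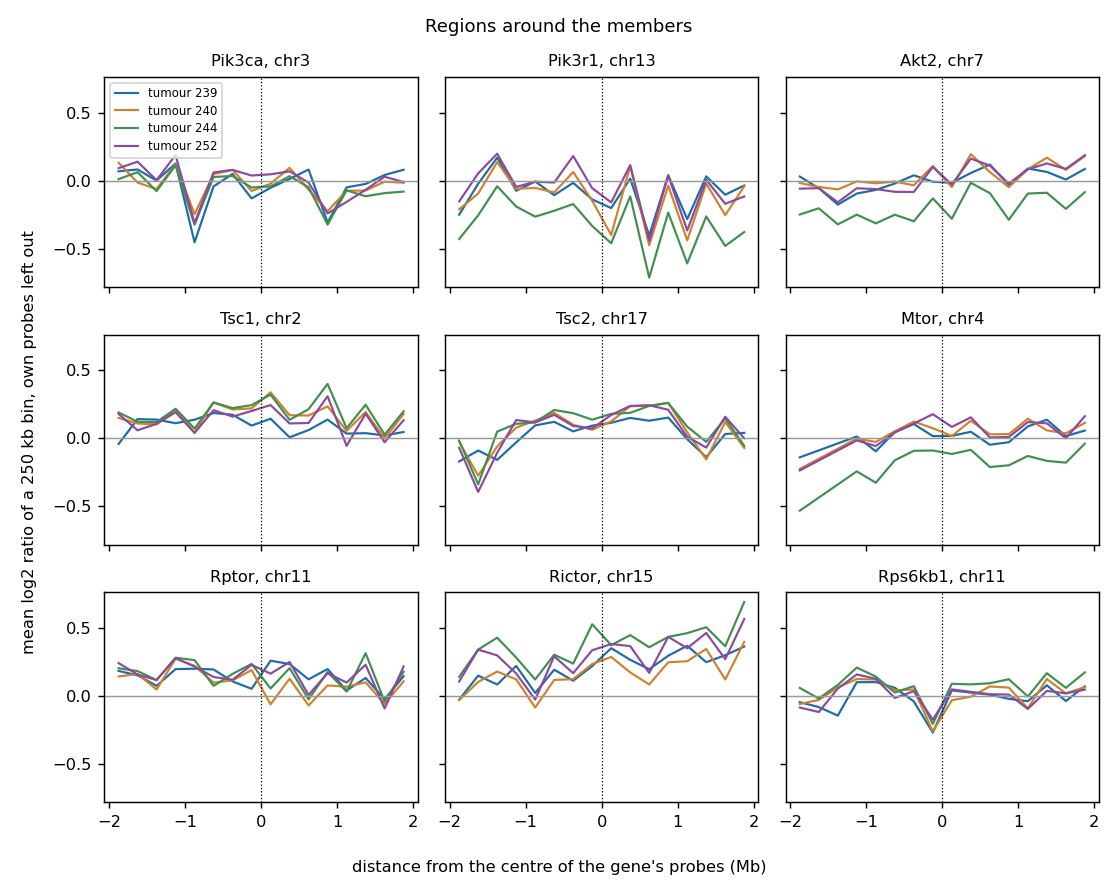
Mean log2 ratio of tumour over pool in 250 kb bins (y axis) against distance in Mb from the centre of each member's probes (x axis), 1 line per tumour, with the member's own probes left out. The lines at Rictor lie mostly above 0 on both sides of the gene, and the line of tumour 244 lies below the other 3 over nearly the whole window at Akt2, Mtor and Pik3r1.

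Mtor encodes the kinase itself. On chromosome 4, tumours 239, 240, 244 and 252 had 0.09, 0.21, 0.08 and 0.32 over its 12 probes, and its 158 neighbours gave 0.02, 0.06, -0.15 and 0.07. The neighbourhood level was -0.00 ± 0.10 (SD, n = 4), with a 95% interval of -0.12 to 0.11, and tumour 244 was the only one below 0. Elsewhere chromosome 4 was at -0.23 in tumour 244 and between -0.04 and -0.01 in the others. The gene level of 0.18 ± 0.11 (SD, n = 4) did not pass (adjusted p = 0.071), and it stood 0.18 above the neighbours (adjusted p = 0.0162). The pair of Mtor probes that were not well above background are printed, since they are the highest of the 12.
Mtor probe 1 (chr4:147826917-147826976): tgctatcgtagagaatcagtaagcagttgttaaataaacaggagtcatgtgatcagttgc
Mtor probe 6 (chr4:147873450-147873509): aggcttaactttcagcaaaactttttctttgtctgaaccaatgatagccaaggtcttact
Probe 1 gave 0.86, 0.36, 0.29 and 1.18 and probe 6 gave -0.06, 0.91, 0.92 and 0.70 in the 4 tumours, on pool signals of 133 and 199. The brightest Mtor probe, at 7750, gave -0.05, -0.17, -0.26 and -0.16. Without the dim pair the difference from the neighbours was 0.09 (adjusted p = 0.0808), and after normexp it was -0.07 (adjusted p = 0.0887). It also missed the threshold without tumour 240, 244 or 252 (0.19, 0.16 and 0.15, adjusted p = 0.0525, 0.072 and 0.0666).

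Rptor encodes Raptor, the scaffold that brings substrates to the growth-promoting mTOR complex. It had the most probes of the members, 32 over 294 kb of chromosome 11. Tumours 239, 240, 244 and 252 had 0.22, 0.12, 0.21 and 0.21 over these probes, with a mean of 0.19 ± 0.05 (SD, n = 4, adjusted p = 0.0345). The 190 neighbours gave 0.18, 0.11, 0.16 and 0.16, a mean of 0.15 ± 0.03 (SD, n = 4, adjusted p = 0.0313). Gene and region thus lay close together, 0.04 apart (adjusted p = 0.331, 95% interval -0.04 to 0.11). The rest of chromosome 11, on which Rps6kb1 also lies, was at -0.00, 0.02, 0.06 and 0.02. Tumour 240 was the lowest in gene and region. Of the 32 probes, 20 were above 0 in all 4 tumours and 4 below 0 in all 4, and their means ran between -0.32 and 0.71. Both calls were lost in fits on 3 tumours, although the levels themselves changed little. Without tumour 239, 240, 244 or 252 the gene level was 0.18, 0.21, 0.19 and 0.18 with adjusted p = 0.0972, 0.0944, 0.0503 and 0.1255. Without tumour 239, 240 or 252 the neighbourhood level was 0.15, 0.17 and 0.15 with adjusted p = 0.198, 0.164 and 0.169. After normexp the gene level was 0.01 and the neighbourhood level 0.05, and the brightness of the neighbours, a mean log2 signal of 9.80 against 9.93 in the rest of the chromosome, was the lower. The part of brightness in the result was not tested beyond these settings.

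Rictor encodes the scaffold of the mTOR complex that phosphorylates AKT. It was the highest of the 9 members in gene level and neighbourhood level. On chromosome 15, its 10 probes read 0.39, 0.24, 0.43 and 0.42 in the order 239, 240, 244 and 252, with a mean of 0.37 ± 0.09 (SD, n = 4, adjusted p = 0.00473, 95% interval 0.23 to 0.51). The 107 neighbours gave 0.22, 0.17, 0.37 and 0.28, a mean of 0.26 ± 0.09 (SD, n = 4, adjusted p = 0.0229). Tumour 240 was the lowest and tumour 244 the highest in both. The rest of chromosome 15 was at 0.23, 0.14, 0.35 and 0.28, so the region differed from its chromosome by at most 0.03 in each tumour. Of the neighbouring probes, 81.3% had a mean above 0. The gene level was called in 17 of 17 settings run (the one used here and 16 alternatives), with values of 0.26 to 0.42, and the neighbourhood level in 16 of 18. The 2 exceptions were the fits without tumour 239 (0.27, adjusted p = 0.148) and without tumour 252 (0.25, adjusted p = 0.0783). The gene's excess of 0.11 over its neighbours (adjusted p = 0.0455) was called in 7 of 17 settings and was lost without tumour 239, 240, 244 or 252 (0.09, 0.12, 0.13 and 0.10, adjusted p = 0.0877, 0.0959, 0.0851 and 0.148). The highest and the lowest of the 10 probes are printed.
Rictor probe 4 (chr15:6691560-6691619): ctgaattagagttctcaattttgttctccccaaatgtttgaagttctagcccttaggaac
Rictor probe 9 (chr15:6739449-6739508): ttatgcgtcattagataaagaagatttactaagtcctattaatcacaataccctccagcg
Probe 4, not well above background on every array with a pool signal of 149, gave 0.38, 0.76, 0.67 and 0.72. Probe 9, with a pool signal of 1573, gave 0.22, -0.54, 0.01 and -0.12. The other 8 averaged between 0.06 and 0.61. In all, 8 of the 10 Rictor probes were above 0 in each tumour and 0 were below 0 in each tumour.

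Rps6kb1 encodes the S6 kinase, a substrate of the Raptor complex that phosphorylates ribosomal protein S6. On chromosome 11, tumours 239, 240, 244 and 252 had -0.11, -0.23, -0.13 and -0.32 over its 4 probes, all below 0, with a mean of -0.20 ± 0.10 (SD, n = 4, adjusted p = 0.0446). On average its 182 neighbours did not follow, at -0.00, 0.02, 0.07 and 0.02. Their mean was 0.02 ± 0.03 (SD, n = 4, adjusted p = 0.636). In the 250 kb bin just before the gene's centre, however, 17 neighbours read -0.27, -0.26, -0.21 and -0.17, low like the gene. The 22 neighbours in the bin just after it read 0.04, -0.03, 0.09 and 0.05. Whether the low level extends beyond the gene was not tested. The gene stood 0.22 below the mean of its neighbours (-0.22, adjusted p = 0.0107), the largest distance of a member from its region. The 4 probes lie over 34 kb and are printed because they carry this difference.
Rps6kb1 probe 1 (chr11:86320945-86321004): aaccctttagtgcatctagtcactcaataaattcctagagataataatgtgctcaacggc
Rps6kb1 probe 2 (chr11:86331034-86331093): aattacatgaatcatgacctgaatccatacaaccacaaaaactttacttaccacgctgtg
Rps6kb1 probe 3 (chr11:86342858-86342917): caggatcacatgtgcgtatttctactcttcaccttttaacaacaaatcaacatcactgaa
Rps6kb1 probe 4 (chr11:86354957-86355016): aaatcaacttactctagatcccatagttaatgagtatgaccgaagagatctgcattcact
Probes 1, 2 and 3 were below 0 in every tumour, with means of -0.17, -0.27 and -0.33. Probe 4 gave 0.05, -0.02, 0.20 and -0.27, with a mean of -0.01. The probes of Rps6kb1 were bright, with a mean log2 signal of 10.7 against 9.97 in the neighbours. After normexp the gene level was 0.05 (adjusted p = 0.563) and the difference 0.05 (adjusted p = 0.277), the only one of 17 settings in which the difference was not called. The GC correction gave a gene level of -0.17 (adjusted p = 0.0698). After removal of a trend with intensity the gene level was -0.13 (adjusted p = 0.134) and the difference -0.15 (adjusted p = 0.0177). The gene level was also not called without tumour 239, 240, 244 or 252 (-0.23, -0.18, -0.22 and -0.16, adjusted p = 0.0619, 0.166, 0.055 and 0.193).

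Single probes of one gene differed more than the tumours did. The SD among probe means was 0.14 to 0.41 within the members, while the median SD of a probe over the tumours was 0.10 to 0.20. Dim probes gave the higher ratios. Across the 85 member probes the mean log2 signal and the mean log2 ratio had r = -0.52 and rho = -0.55, against r = -0.29 and rho = -0.35 across 161417 autosomal probes. These probes share arrays and a pool and are not replicates, so the values are descriptions. The 29 member probes among the dimmest 25% of all probes had a median ratio of 0.30 and the 16 among the brightest 25% one of -0.16, against 0.15 and -0.15 among all autosomal probes. The GC content of the member probes lay between 31.7% and 40.7% around a median of 36.7%, the same median as over all probes. In all, 5 member probes were not well above background on all arrays, 0 of their spots were saturated and 1 spot was dropped as an outlier. The called differences between gene and region were smaller than the SD among the gene's own probe means at Pik3ca (0.18 and 0.22), Tsc1 (-0.11 and 0.30), Tsc2 (0.12 and 0.41), Mtor (0.18 and 0.27) and Rictor (0.11 and 0.26). At Rps6kb1 the difference of -0.22 was the larger in size, beside an SD of 0.14. The SD is that of single probes, and a mean over several probes varies less. The comparison is therefore a description and no test of these differences.

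**Figure D3:**
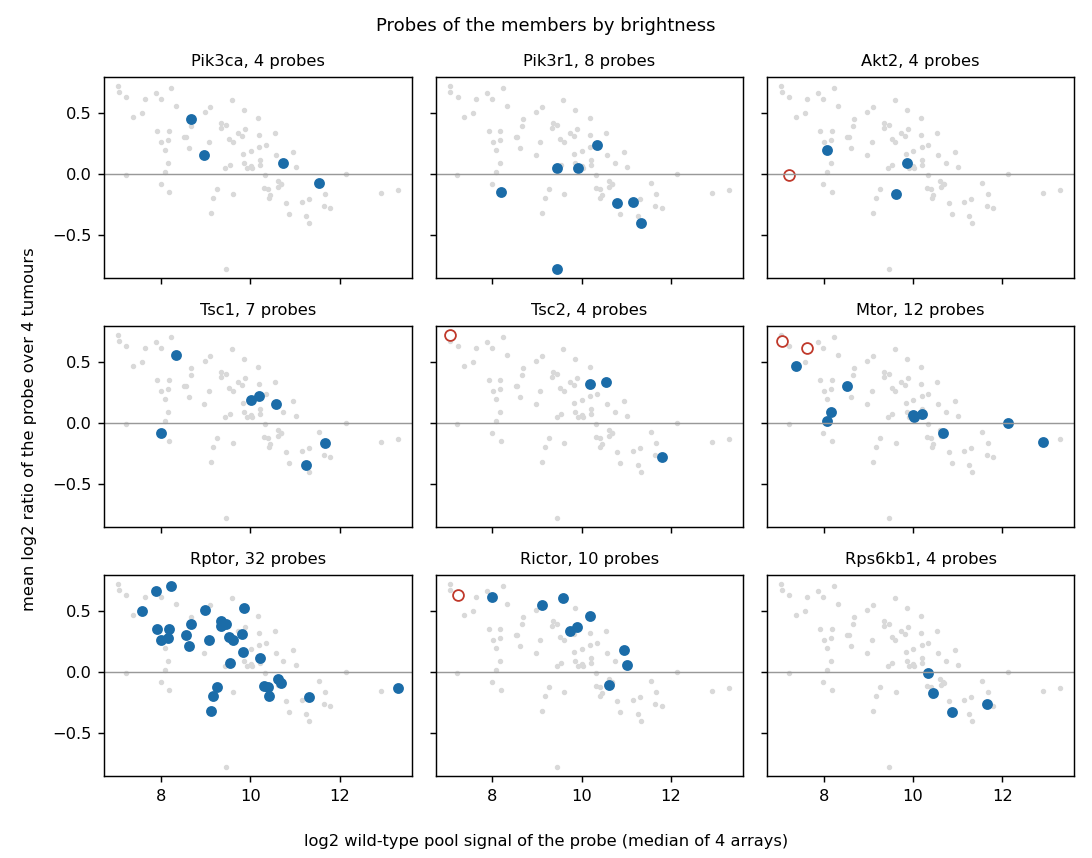
Mean log2 ratio of each member probe over the 4 tumours (y axis) against its log2 wild-type pool signal (x axis), 1 panel per member, with that member's probes in blue, its probes not well above background as open red circles and all 85 in grey. High ratios sit at dim probes, as at Tsc2 and Mtor, and the probes of Rps6kb1 sit on the bright side, at or below 0.

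**Figure D4:**
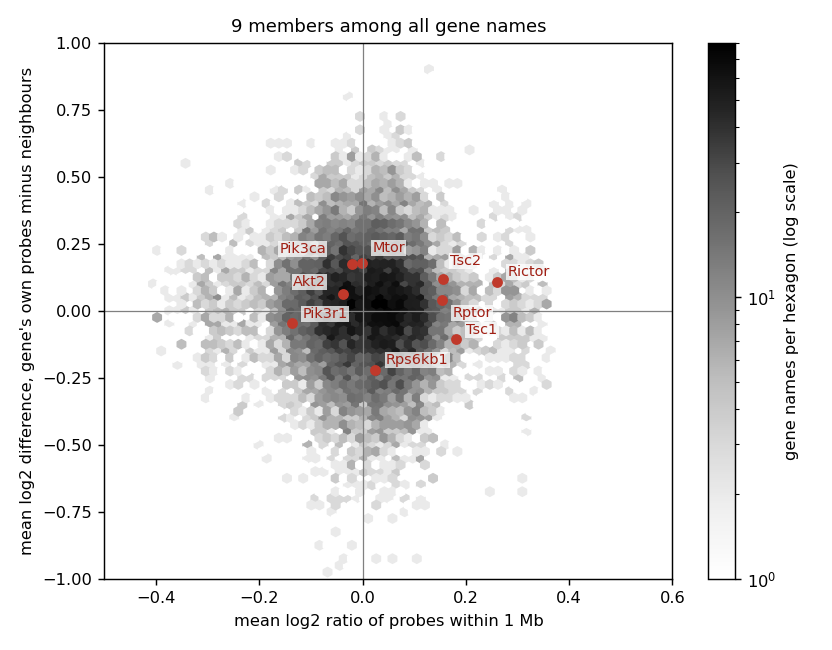
Gene level minus neighbourhood level (y axis, log2) against neighbourhood level (x axis, log2), means over 4 tumours, for all gene names as a density (log shading) and the 9 members as red points, with gene names beyond the axes not drawn. Rictor is the member farthest to the right at 0.26, and the other 8 lie within the dense part of the cloud or at its edge.

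The tumours were then described one by one. Relative to the pool, a neighbourhood level of at least 0.2 was found at 1, 1, 2 and 1 members in tumours 239, 240, 244 and 252, beside 4.09%, 1.65%, 19.3% and 7.5% of all gene names. A level of -0.2 or below was found at 0, 0, 2 and 0 members, beside 4.4%, 1.88%, 29.3% and 2.79%. The high ones were Rictor in tumours 239, 244 and 252 and Tsc1 in tumours 240 and 244. The low ones were Pik3r1 and Akt2 in tumour 244, the tumour with the most regions past either limit. The counts of tumour 244 depend on the centre, since its mode of 1 Mb bins lay 0.106 above the median used here. With that mode as centre its Mtor region (-0.15) would also pass -0.2, and its Tsc1 region (0.23) would fall short of 0.2. Differences between tumours leave out offsets that the arrays share. Set against the mean of the other 3 tumours, tumour 244 was 0.28 lower at the Pik3r1 probes (-0.28) and 0.23 lower around them (-0.23). Its Akt2 probes and region departed by -0.11 and -0.22, its Mtor probes and region by -0.12 and -0.20, and its Rictor probes and region by 0.08 and 0.15. The gene's own probes and the separate probes around it departed with the same sign in 29 of 36 pairs of member and tumour, with 8 of 9 in tumour 244 and 9 of 9 in tumour 252. Over the 36 pairs, which share tumours and arrays, r was 0.71. The matching values over all gene names are not given here, so neither figure can be read as a trait of these members. In tumour 252, Mtor (0.19 and 0.09), Pik3ca (0.13 and 0.04), Pik3r1 (0.23 and 0.12) and Tsc2 (0.13 and 0.01) departed upwards in gene and in region. Its Rps6kb1 probes departed by -0.16 while the region departed by -0.01. Each of these rests on 1 array and was not tested.

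**Figure D5:**
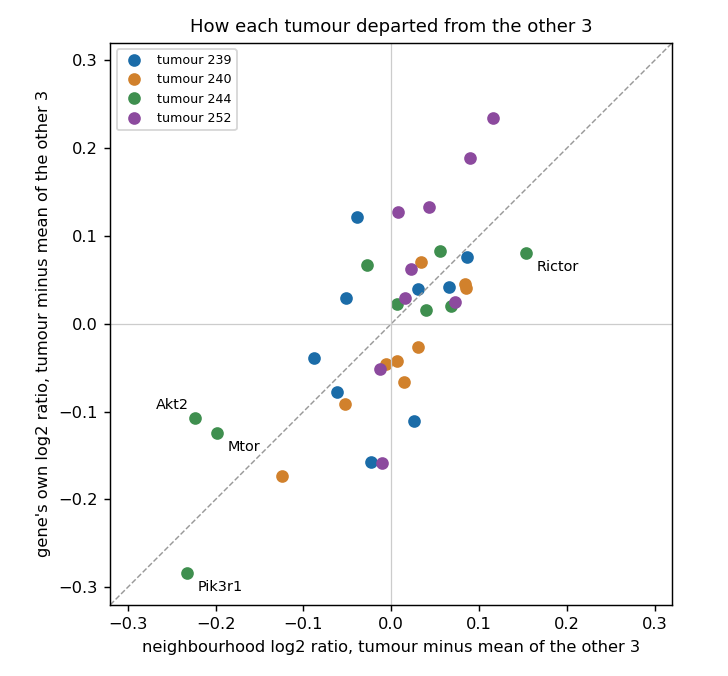
Departure of each tumour from the mean of the other 3 at the gene's own probes (y axis, log2) against that of the probes within 1 Mb (x axis, log2), with 36 points for 9 members in 4 tumours and a dashed line of equality. Tumour 244 has the 3 points farthest to the left, at Pik3r1, Akt2 and Mtor, and its Rictor point is the farthest to the right.

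Of 69 further genes on 8 lists of the pathway, 61 had probes. In gene level 10 were called higher (16.4%) and 6 lower (9.84%), beside 17.6% and 15.1% of all gene names. In neighbourhood level 4 were called higher (6.56%) and 2 lower (3.28%), beside 5.41% and 3.74%. These shares lie near or below those over all gene names. The 6 genes on chromosomes 12 and 15 gave 5 of these 6 neighbourhood calls, and off these chromosomes 1 of 55 was called higher and 0 lower. That 1 was Tti1, which belongs to a chaperone complex for mTOR and was named after its value of 0.17 was seen. Its call was lost without tumour 239, 240 or 252 (0.16, 0.17 and 0.19, adjusted p = 0.1796, 0.1796 and 0.0831). The medians of the 61 were 0.03 in both levels, against 0.02 for all gene names in both. Among the mTOR complex subunits 3 of 7 were called higher in gene level (Deptor, Prr5 and Telo2) and 3 of 7 in neighbourhood level (Deptor, Prr5 and Tti1), Telo2 being named after its value was seen. The shares over all gene names were 17.6% and 5.41%, and 7 genes are too few to set against them. Deptor, an inhibitor of mTOR on chromosome 15, had 15 probes at 0.25, 0.21, 0.42 and 0.30 in tumours 239, 240, 244 and 252 (mean 0.29, adjusted p = 0.0107) in a region at 0.21 (adjusted p = 0.0373). Prr5, a partner of Rictor on chromosome 15, had 2 probes at 0.33 (adjusted p = 0.0334) in a region at 0.36 (adjusted p = 0.0217). Rictor and these partners lie on the same chromosome and are not separate observations of the pathway. The call of the Deptor region was lost without tumour 239, 240 or 252 (0.21, 0.25 and 0.20, adjusted p = 0.183, 0.0589 and 0.145). That of the Prr5 region was lost without tumour 239 or 252 (0.38 and 0.35, adjusted p = 0.148 and 0.0673), and the Prr5 gene level was not called without tumour 239, 244 or 252.

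Among the energy inputs 1 of 7 gene levels was called higher (14.3%) and 1 lower (14.3%), beside 17.6% and 15.1% of all gene names. The lower one was Sesn2, at -0.79 (adjusted p = 0.00456) on 1 probe. The higher one was Prkaa1, a catalytic subunit of AMP-activated kinase on chromosome 15. It had 3 probes at 0.28, 0.30, 0.55 and 0.45 (mean 0.40, adjusted p = 0.00529), and its region gave 0.15 (adjusted p = 0.0989). Prkag1, its gamma subunit on chromosome 15, had 2 probes at -0.18 (adjusted p = 0.104) in a region at 0.31 (adjusted p = 0.0217), a difference of -0.49 that passed (adjusted p = 0.00257). Prkaa2, the other catalytic subunit of that kinase, gave -0.22 (adjusted p = 0.0508) on 8 probes, below a region at 0.00, and Sesn3, a stress-induced inhibitor of the amino acid branch, gave 0.03 in a region at -0.09. Both differences from the region passed (adjusted p = 0.0059 and 0.0339). Akt1 and Pik3cg, the gamma catalytic subunit of PI3K, lie on chromosome 12, in regions at -0.27 (adjusted p = 0.0231) and -0.29 (adjusted p = 0.0218). Regions of both were negative in all 4 tumours, between -0.37 and -0.17 at Akt1 and between -0.37 and -0.19 at Pik3cg. Their own probes, 1 and 3 in number, were at 0.23 and 0.02 and did not pass against 0, and they stood 0.49 and 0.30 above their regions (adjusted p = 0.00459 and 0.00446). Without tumour 239 no region among these was called, at -0.25 for Akt1, -0.26 for Pik3cg and 0.32 for Prkag1 (adjusted p = 0.153, 0.148 and 0.148). Without tumour 252 they were at -0.29, -0.31 and 0.30 and missed the threshold too (adjusted p = 0.0673 each). The Sesn3 difference was lost without any 1 of the 4 tumours.

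No gene level of the other PI3K subunits, of the phosphoinositide phosphatases and adaptors or of the AKT kinases and their phosphatases passed. Among those on at least 3 probes, Pik3r5 (-0.13), Irs1 (-0.16) and Pdpk1, the kinase that activates AKT (-0.18), were called lower relative to their regions, and Inpp5d, a lipid phosphatase of blood cells, was called higher (0.12). Pik3r2 (-0.31) and Irs2 (-0.18), each read by 1 probe and named after their values were seen, were called lower as well. The calls of Pik3r5, Irs1 and Inpp5d were lost without tumour 240, 244 or 252. In amino acid sensing 3 of 15 gene levels were called higher (20%) and 3 lower (20%), near the 17.6% and 15.1% of all gene names. Nprl3, a subunit of the complex that restrains mTOR when amino acids are scarce, was at 0.27, 0.24, 0.26 and 0.24 (mean 0.25, adjusted p = 0.0113) on 4 probes in a region at 0.06 that did not pass (adjusted p = 0.26). Fnip2, a partner of folliculin, was at -0.20 (adjusted p = 0.0412) on 10 probes. Rragb on chromosome X, a GTPase that recruits mTOR to lysosomes, was at 0.91 in tumour 252 and between -0.20 and 0.11 in the others. In tumour 252 its region was at 0.69 and the median of chromosome X at 0.73, and the region was between -0.34 and -0.12 in the others. Among the mTOR targets 3 of 11 were called higher (27.3%) and 2 lower (18.2%), beside the same 17.6% and 15.1%. Eif4ebp2, a repressor of translation that mTOR inactivates, was at -0.24, -0.31, -0.44 and -0.20 (mean -0.30, adjusted p = 0.0111) on 3 probes in a region at 0.03. Tfeb, the transcription factor of lysosome genes, was at 0.20 (adjusted p = 0.0486) on 5 probes, and Grb10, an adaptor that dampens insulin signalling, stood 0.14 above its region (adjusted p = 0.0447). In gene level, Nprl3 and Eif4ebp2 were not called without tumour 240, and Fnip2 and Tfeb not without tumour 240, 244 or 252. The Grb10 difference was lost without any 1 of the 4 tumours, and that of Rragb without tumour 240 or 252. The list genes farthest from 0 in gene level had 1 probe each and were named after their values were seen. They were Sesn2 (-0.79), Rraga (-0.72, adjusted p = 0.000431), Rps6kb2 (0.59, adjusted p = 0.0181) and Rps6 (-0.47, adjusted p = 0.00766). All were also called relative to their regions, as were 55.9% of genes with 1 probe. Eif4ebp1, named likewise, was at 0.39 (adjusted p = 0.00996) on 2 probes. Fits without 1 tumour are not given for these genes.

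Genes on other chromosomes were ranked by the root mean square difference of their 4 gene levels from those of each member called in gene level. Among 8407 candidates with at least 3 probes, 5 lay within 0.05 of Rictor, and Mllt1 (0.02), Arhgef2 (0.04) and Sec14l1 (0.05) were the nearest. Prn, Ncapg and Bmp3 were nearest to Rptor, at 0.02, 0.02 and 0.03, where 71 of 8159 genes lay within 0.05. Slc7a14, Gnb4 and Slc1a4 were nearest to Tsc2, at 0.03 each, where 20 of 8410 lay within 0.05, and Gca, Nmi and Hgf were nearest to Rps6kb1, at 0.02, 0.04 and 0.04, where 12 of 8159 did. Levels enter this measure as they are, so a member farther from 0 has fewer genes near it, and likeness over 4 tumours is a description.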

How the data were processed

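Tumour DNA from 4 mice and a pool of 3 wild-type livers was compared on 2-colour Agilent mouse CGH arrays, which per the file headers shared 1 slide and 1 scan, so no batch could be fitted. Agilent Feature Extraction 12.0.0 turned the scans into spot values, per the submitters' processing notes, while the file headers give version 12.0.1.1. Per the file headers, each processed intensity was background-subtracted, detrended and dye-normalised. The deposited log10 ratio has tumour on top, and it stands uncentred in the authors' value table, with medians of 0.0023, 0.00233, 0.00131 and 0.000212.

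Of 180880 spots per array, 6575 controls and 95 to 120 flagged outliers were dropped, repeated spots of 1 probe were reduced to their mean, and log2 ratios of the deposited intensities were centred on the autosomal median over 161460 probes. Genes (18697 tested) needed 10 neighbouring probes within 1 Mb for a neighbourhood level. The tests used limma 3.58.1 in R 4.3.3 with an intercept only. Other steps ran in Python 3.11.15 (pandas 2.3.3, numpy 2.4.6, statsmodels 0.14.6, scipy 1.17.1, matplotlib 3.10.9).

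Gene names came from the files, and 15442 matched a current symbol in a RefSeq table of GRCm38.p6, 703 an older one and 2553 none. Exon and intron annotation of the probes was not used here. Members, lists and the naming rule were chosen with earlier results of these data known. The rule named the members, list genes called in gene level or in gene minus neighbourhood on at least 3 probes or lying on chromosome 12 or 15 (18 genes, at most 30), and the 3 genes most like each called member. Alternatives were the mode as centre, normexp with an offset of 50, removal of a lowess trend with intensity, the authors' value table, probes well above background, the median over probes, genes with at least 3 probes, neighbourhoods of 0.5 and 2 Mb, autosomal genes, robust eBayes, limits of 0.1 and 0.3, and each tumour left out. The mode of 1 Mb bins, a GC correction and leaving out each gene's farthest probe were added after the data were seen.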

Additional observations from a re-analysis of the deposited data

Results flagged for a closer look

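For 9 members and 3 quantities, 27 sets of 4 tumours were examined for a tumour far from the other 3, and 5 were found, where chance gives about 1 in 20. All 5 concern Akt2 in tumour 244 and Rptor in tumour 240. The 3 quantities of a member share values, so the 5 are not separate events and their number cannot be set against chance. Akt2 was at -0.054 in tumour 244, against 0.04 to 0.06 in the other tumours, its neighbourhood was at -0.205, against 0.01 to 0.03, and the difference of the 2 was 0.15, against 0.03 to 0.05. Rptor was at 0.12 in tumour 240, against 0.21 to 0.22 in the other tumours, and its difference from the neighbourhood was 0.0093, against 0.05 in each of the others.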

How the results depend on the processing

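Of the 27 single values of the members, 344 repeats under other settings kept sign and side of the threshold, 74 kept the sign and lost the call, 2 kept the sign and gained one, and 21 had the other sign; the cause was not tested. With normexp, gene levels were -0.121 (Mtor), -0.331 (Akt2) and 0.045 (Rps6kb1), the Rps6kb1 neighbourhood -0.0043, and differences -0.074 (Mtor), -0.038 (Rptor), -0.270 (Akt2) and 0.050 (Rps6kb1). With lowess, Akt2 was at -0.097 and its difference at -0.063, and with the GC correction Akt2 was at -0.049. Neighbourhoods of 0.5 and 2 Mb were at 0.027 and 0.0073 for Mtor and 0.019 and 0.0012 for Pik3ca, and at -0.022 for Rps6kb1 with 0.5 Mb, which was at -0.00037 with the mode of 1 Mb bins as centre. That centre lowered tumour 244 by 0.106. The Tsc2 difference was -0.024 over probes well above background, and the Pik3r1 difference 0.039 without each gene's farthest probe. Without one tumour the neighbourhood of Mtor ranged from -0.024 to 0.048 and that of Akt2 from -0.059 to 0.018, both above 0 only without tumour 244.

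Members called higher in neighbourhood level were 4, but 1 with the mode of bins, normexp or 2 Mb and 2 with the GC correction. In gene level 1 member, Rps6kb1, was called lower, but 0 with lowess, Akt2 in its place with normexp and Pik3r1 in its place with the GC correction. In gene minus neighbourhood, 4 were called higher, but 1 with normexp or probes well above background and 2 with the median over probes, and 2 were called lower, but 1 with normexp, lowess, the median over probes, 2 Mb or without the farthest probe. Neighbourhoods past 0.2 were 5 high and 2 low, against 16 and 4 past 0.1, 1 and 1 past 0.3, 2 high with normexp, 3 high and 1 low with 2 Mb, and 1 low with 0.5 Mb. With a tumour left out, members called ranged from 1 to 2 higher and 0 to 0 lower in gene level, 0 to 4 higher in neighbourhood level, and 0 to 2 higher and 1 to 2 lower in gene minus neighbourhood, and neighbourhoods past 0.2 from 3 to 4 high and 0 to 2 low. Over all gene names, 6124, 1712 and 8925 were called in gene level, neighbourhood level and their difference. These were 2311, 773 and 4488 among genes with at least 3 probes, where fewer were tested, and 811 neighbourhoods were called with the mode of bins. Without 1 tumour they ranged from 3128 to 5200, 0 to 4296 and 5651 to 9671. The share of calls that were higher was 53.9% in gene level, against 42.9% with normexp, and 59.1% in neighbourhood level, against 35.0% with normexp and 74.4% with the mode of bins. No paired analysis was possible because the tumours form 1 group. Probe number limits the gene levels.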
